A study of Ziziphus jujuba var. spinosa with 24 samples.

Results

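This account concerns 52 genes of sour jujube (Ziziphus jujuba Mill. var. spinosa) whose leaf transcripts stood at least 4 times above control at both 6 h and 12 h of drought and back near control at 48 h, in autotetraploid and in diploid plants alike. They were selected, out of 32527 genes in the count table, on their measured levels: CPM values (counts scaled to a common library total) were averaged per group, and 0.5 was added to each mean. A member had to be a LOC identifier, to reach at least 4 times control at 6 h and at 12 h with all 3 libraries above all 3 controls, to have a 12 h over 6 h ratio and a 48 h over control ratio each over 0.5 and under 2, and to have a mean of at least 5 at 6 h, all of this in both ploidies. Levels and ratios over time within a ploidy are therefore a description of what was selected and carry no test.

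Sequenced total RNA came from leaves of tissue-cultured plants kept under 16 h of light and 8 h of darkness, 30 days in culture and 45 days in rooting medium, then moved to nutrient solution. The groups were autotetraploid plants under control conditions and at 6 h, 12 h and 48 h of drought, and diploid plants under the same 4 conditions, with 3 libraries in each of the 8 groups and 24 in all. Drought was imposed with PEG6000, a polymer that lowers the water potential of the solution, raised through 5%, 10% and 15% to 20% at daily steps. The concentration in force at each harvest and the hour of the day of each harvest were not given, so the time since treatment, the dose and the hour of the day cannot be told apart. Whether the 3 libraries of a group are separate plants is not stated. The p-values here reflect only how much such libraries vary, possibly for technical reasons. Equal amounts of RNA entered each library, so a level is a share of the RNA, and fewer cells of a type and less RNA per cell cannot be told apart.

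Leaves that lose water accumulate abscisic acid, a hormone that closes stomata and switches on many transcripts, among them those for protective proteins such as dehydrins and for enzymes that make compatible sugars. Other drought responses run without this hormone. Many stress transcripts of leaves also follow the circadian clock and light, so that their level depends on the hour of the day. None of the 52 identifiers is paired with a gene name or a product description in the sources used here, so the members are described by their levels and not by a function. A reference table of the ASM3175591v1 assembly listed 41 of the 52, all 41 as protein coding, and did not list the other 11.

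Library totals ran between 30750412 and 50404402 counts, with a median of 37199250, and the smallest count of a member in a library at 6 h or 12 h was 144. The leaf label was checked on the rubisco activase genes RCA1 and RCA2, which leaves use in carbon fixation: RCA1 lay between 137 and 4572 CPM and RCA2 between 1717 and 16593 CPM over the 24 libraries. No pair of libraries of a group agreed within sampling noise: the chi-square per gene, near 1 for sampling noise alone, lay between 45.8 and 129 for the pairs.

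The selection narrowed in steps. Of the LOC identifiers, 93 reached 4 times control at both times in both ploidies, 80 of these had all libraries above all controls, and 75 of these also had the required mean at 6 h. Among those 75 induced genes, 7 failed the bounds on 12 h over 6 h alone, 13 failed the bounds on 48 h over control alone, and 3 failed both, which leaves the 52. Of the 13 that failed the 48 h bounds alone, 10 stood at or above 2 times control at 48 h in the autotetraploid and 8 in the diploid, against 0 at or under 0.5 times control in the autotetraploid and 2 in the diploid. Thus most induced genes that were left out at 48 h were still raised then.

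In autotetraploid leaves the members' ratio to control had a median of 6.81 at 6 h, 7.35 at 12 h and 1.15 at 48 h. In diploid leaves the same medians were 6, 7.17 and 1.1. Over all 25829 genes tested, the medians were 1.01, 1.11 and 0.967 in the autotetraploid and 1.01, 1.08 and 0.992 in the diploid. Between 12 h and 48 h the members' levels dropped steeply, with a median 48 h over 12 h ratio of 0.157 in the autotetraploid and 0.143 in the diploid. The middle 50% of the ratios to control at 12 h spanned 5.67 to 12.2 in the autotetraploid and 5.94 to 11 in the diploid. The largest ratios at 12 h were 93.1 in the autotetraploid and 83.7 in the diploid, both of LOC107429253, so a few strongly induced members stood far above the rest.

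**Figure D1:**
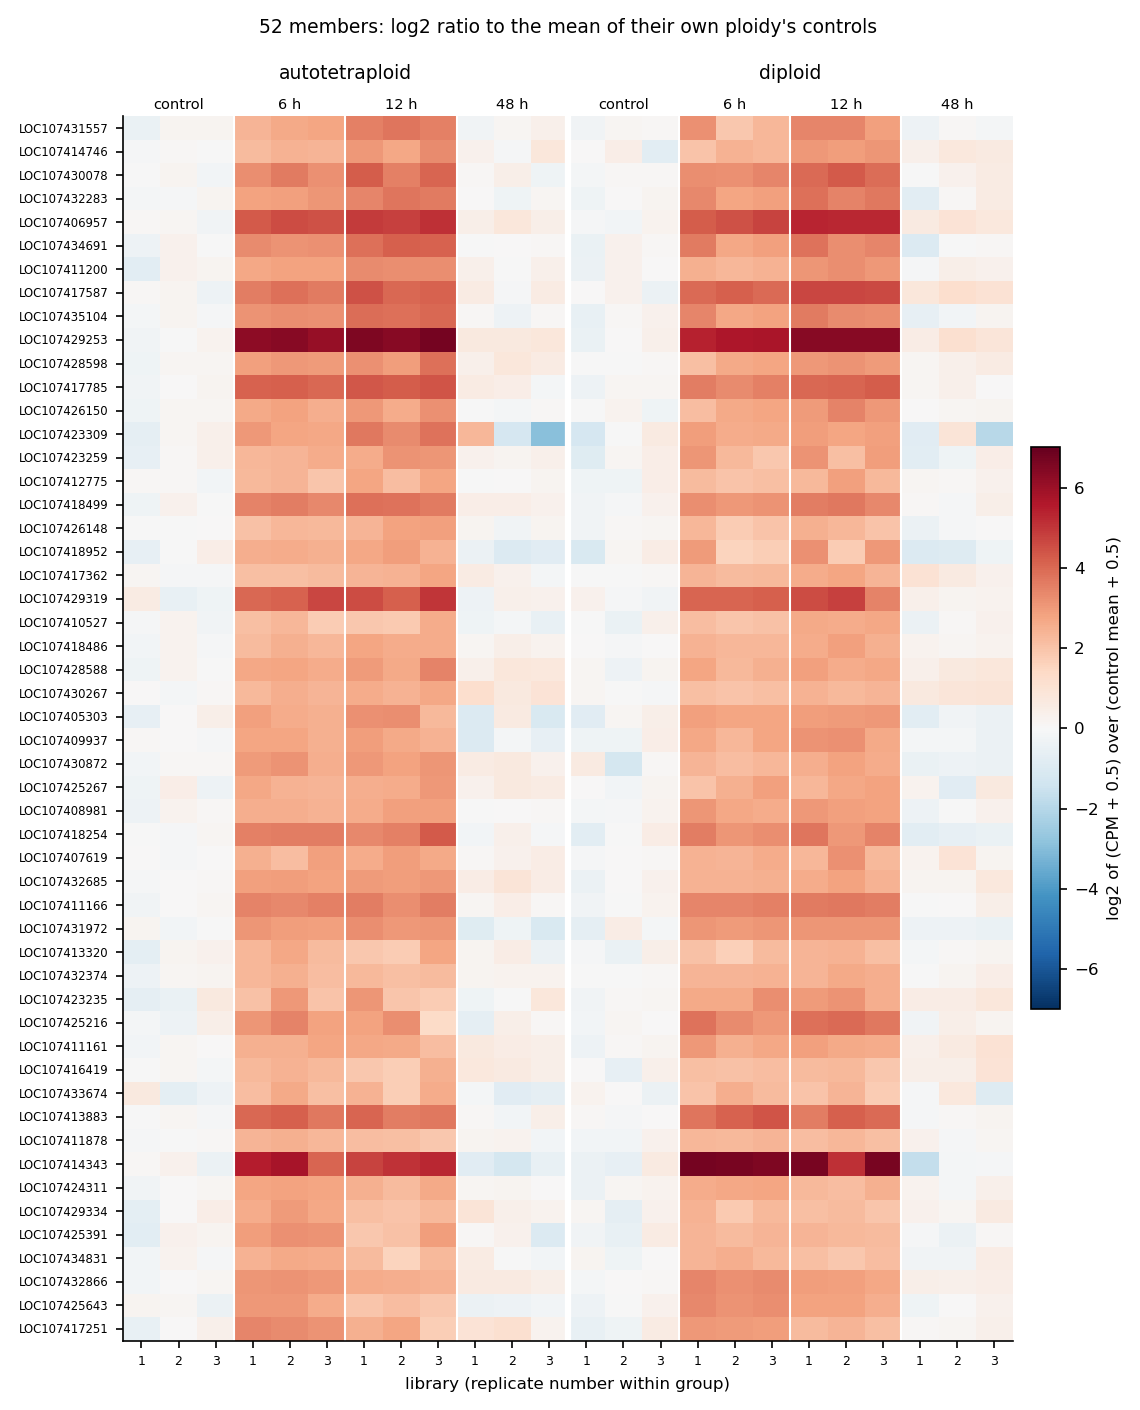
Log2 ratio of each library's CPM to the mean of the control libraries of its own ploidy, 0.5 added to both, for the 52 members (lines) in the 24 libraries (columns; autotetraploid on the left, diploid on the right). Members are ordered by their 12 h over 6 h ratio, highest at the top. Every 6 h and 12 h column is red in both ploidies, as the selection requires, LOC107429253 and LOC107414343 are darkest, and LOC107423309 stands out at 48 h by its scatter between libraries.

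Counts of all members together show how much of the sequenced RNA these genes took up. In autotetraploid libraries the summed level was 2057 ± 236 CPM in controls, 12719 ± 1493 CPM at 6 h, 13426 ± 2009 CPM at 12 h and 2114 ± 175 CPM at 48 h (SD, n = 3 each). In diploid libraries it was 1635 ± 306 CPM in controls, 10346 ± 688 CPM at 6 h, 12804 ± 371 CPM at 12 h and 1881 ± 330 CPM at 48 h (SD, n = 3 each). The 6 h libraries of the autotetraploid held 12768, 14188 and 11203 CPM and those of the diploid 11009, 9636 and 10393 CPM, so the groups did not overlap at 6 h. At 12 h 1 autotetraploid library, replicate 3, held 15714 CPM against 12616 and 11948 CPM in replicates 1 and 2, and the diploid libraries, at 13232, 12592 and 12589 CPM, lay inside that range. A single gene, LOC107410527, made up 28.5% to 54.9% of the sum in each library. Without it, the ploidies overlapped at 6 h, with 8120, 8771 and 7573 CPM in the autotetraploid libraries and 7839, 6889 and 7407 CPM in the diploid ones. The sum was then 8155 ± 600 CPM in autotetraploid and 7378 ± 475 CPM in diploid leaves at 6 h, and 8753 ± 549 CPM in autotetraploid and 8325 ± 394 CPM in diploid leaves at 12 h (SD, n = 3 each).

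**Figure D2:**
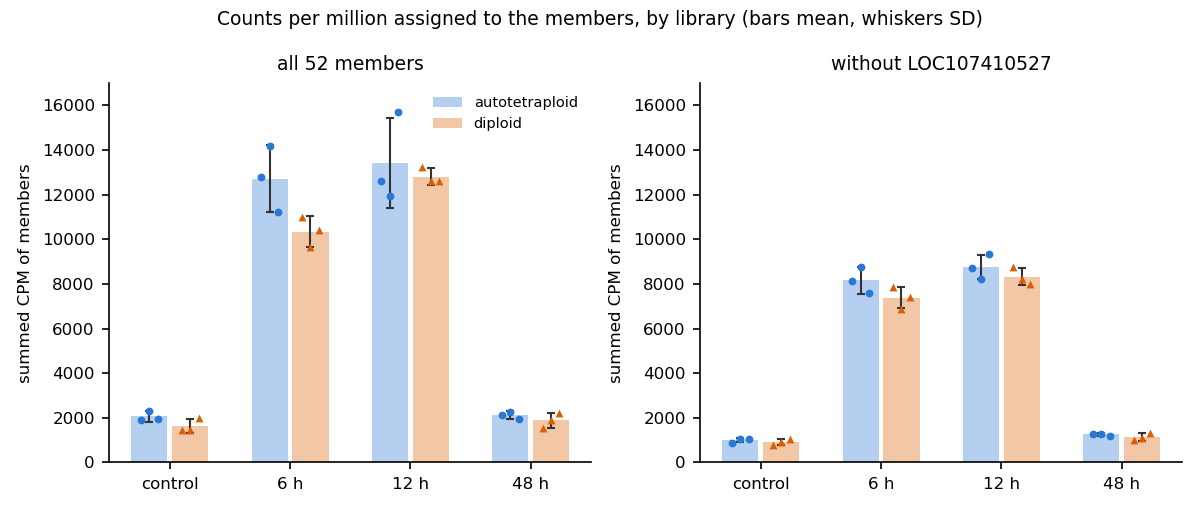
Summed CPM of the members in each library by treatment, for all 52 (left) and without LOC107410527 (right). Bars are group means, whiskers SD of 3 libraries, points libraries, autotetraploid left of diploid. On the left, no library of 6 h or 12 h is under 9636 CPM and none of controls or of 48 h exceeds 2326 CPM; on the right, the ploidies overlap at 6 h.

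Levels between genes were compared on the deposited FPKM scale, which divides by transcript length. Over the libraries at 6 h and 12 h the members had a median level of 43.1 FPKM, ranging between 4.13 and 794 FPKM, against a median of 6.07 FPKM over all genes tested; the required minimum at 6 h and the induction both raise this median. The highest 4 were LOC107410527 at 794 FPKM, LOC107414343 at 750 FPKM, LOC107426150 at 514 FPKM and LOC107432685 at 503 FPKM, and the lowest was LOC107433674 at 4.13 FPKM. LOC107411161 at 304, LOC107409937 at 263, LOC107418254 at 255 and LOC107432283 at 177 FPKM followed the highest 4.

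LOC107410527 was already abundant in control leaves. In autotetraploid leaves it had 1001, 1278 and 913 CPM in controls, 4648, 5417 and 3630 CPM at 6 h, 3892, 3728 and 6397 CPM at 12 h, and 863, 982 and 732 CPM at 48 h. In diploid leaves it had 698, 517 and 929 CPM in controls, 3170, 2747 and 2986 CPM at 6 h, 4477, 4353 and 4606 CPM at 12 h, and 547, 766 and 870 CPM at 48 h. All drought libraries at 6 h and 12 h were far above all controls, and at 6 h all autotetraploid libraries were above all diploid ones, while at 12 h the diploid libraries lay inside the autotetraploid range. Its ratio to control was 4.29 at 6 h and 4.39 at 12 h in the autotetraploid, and 4.15 at 6 h and 6.26 at 12 h in the diploid, and its 6 h ratio in the autotetraploid was the lowest of any member there.

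LOC107414343 combined a high level with a very large ratio. In autotetraploid leaves it had 23, 26.9 and 16.2 CPM in controls, 1032, 1211 and 382 CPM at 6 h, 592, 762 and 857 CPM at 12 h, and 12.7, 9.04 and 15.5 CPM at 48 h. In diploid leaves it had 5.68, 4.92 and 12.1 CPM in controls, 851, 798 and 747 CPM at 6 h, 811, 279 and 822 CPM at 12 h, and 2.06, 6.86 and 7.16 CPM at 48 h. In each ploidy 1 drought library was low, replicate 3 at 6 h in the autotetraploid and replicate 2 at 12 h in the diploid, and both were still far above every control library. Its ratio to control was 38.9 at 6 h and 32.7 at 12 h in the autotetraploid, and 99.1 at 6 h and 79.1 at 12 h in the diploid. In controls and at 48 h all autotetraploid libraries were above all diploid ones, while the levels at 6 h and at 12 h overlapped between the ploidies. At 48 h it was below control in both, at 0.572 times in the autotetraploid, the lowest such ratio of any member there, and at 0.726 times in the diploid.

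LOC107429253 had the largest minimum of the 4 ratios to control. In autotetraploid leaves it had 1.89, 2.33 and 2.92 CPM in controls, 222, 239 and 201 CPM at 6 h, 271, 237 and 296 CPM at 12 h, and 4.05, 4.17 and 4.57 CPM at 48 h. In diploid leaves it had 2.09, 3.14 and 4.02 CPM in controls, 149, 179 and 187 CPM at 6 h, 299, 300 and 300 CPM at 12 h, and 4.56, 7.19 and 6.06 CPM at 48 h. With the same amount added to each group mean as in the selection, its ratios to control lay between 48 and 93.1 at 6 h and 12 h. At such low control levels the added amount makes these ratios understate the difference. The 48 h libraries of each ploidy were all still above all controls of that ploidy. At 6 h all autotetraploid libraries were above the diploid ones and at 12 h all were below. Neither difference was called in the ploidy tests given below.

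The other members with the largest minimum ratios differed widely in level. LOC107406957 had 8.00, 8.52 and 6.52 CPM in controls, 160, 195 and 177 CPM at 6 h and 245, 224 and 277 CPM at 12 h in autotetraploid leaves. In diploid leaves it had 5.90, 5.47 and 7.64 CPM in controls, 129, 148 and 182 CPM at 6 h and 278, 261 and 267 CPM at 12 h. Its ratios were 21.8 and 30.5 in the autotetraploid and 22.5 and 39.4 in the diploid at 6 h and 12 h, and the 12 h libraries lay above all 6 h libraries in each ploidy. LOC107429319, LOC107417587, LOC107417785 and LOC107411166 had ratios to control between 10.9 and 25.5 over both times and ploidies. LOC107411166 had 30.3, 36.8 and 40.1 CPM in controls, 406, 378 and 423 CPM at 6 h and 435, 348 and 441 CPM at 12 h in autotetraploid leaves. In diploid leaves it had 27.5, 32.3 and 38.9 CPM in controls, 357, 357 and 382 CPM at 6 h and 422, 432 and 399 CPM at 12 h. LOC107413883 was close to undetected in controls and at 48 h of drought, when its means were 0.117 CPM in autotetraploid and 0.0506 CPM in diploid leaves. It had 0.0533, 0.112 and 0.0259 CPM in controls, 8.48, 9.77 and 6.92 CPM at 6 h and 9.15, 6.24 and 6.92 CPM at 12 h in autotetraploid leaves. In diploid leaves it had 0.0426, 0 and 0.0223 CPM in controls, 6.58, 8.50 and 10.6 CPM at 6 h and 5.75, 8.84 and 7.54 CPM at 12 h. Its ratios at 6 h, 15.8 in the autotetraploid and 17.4 in the diploid, are set by the added 0.5 and understate the difference. Its place below LOC107429253 in the order of ratios also depends on the added 0.5.

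**Figure D3:**
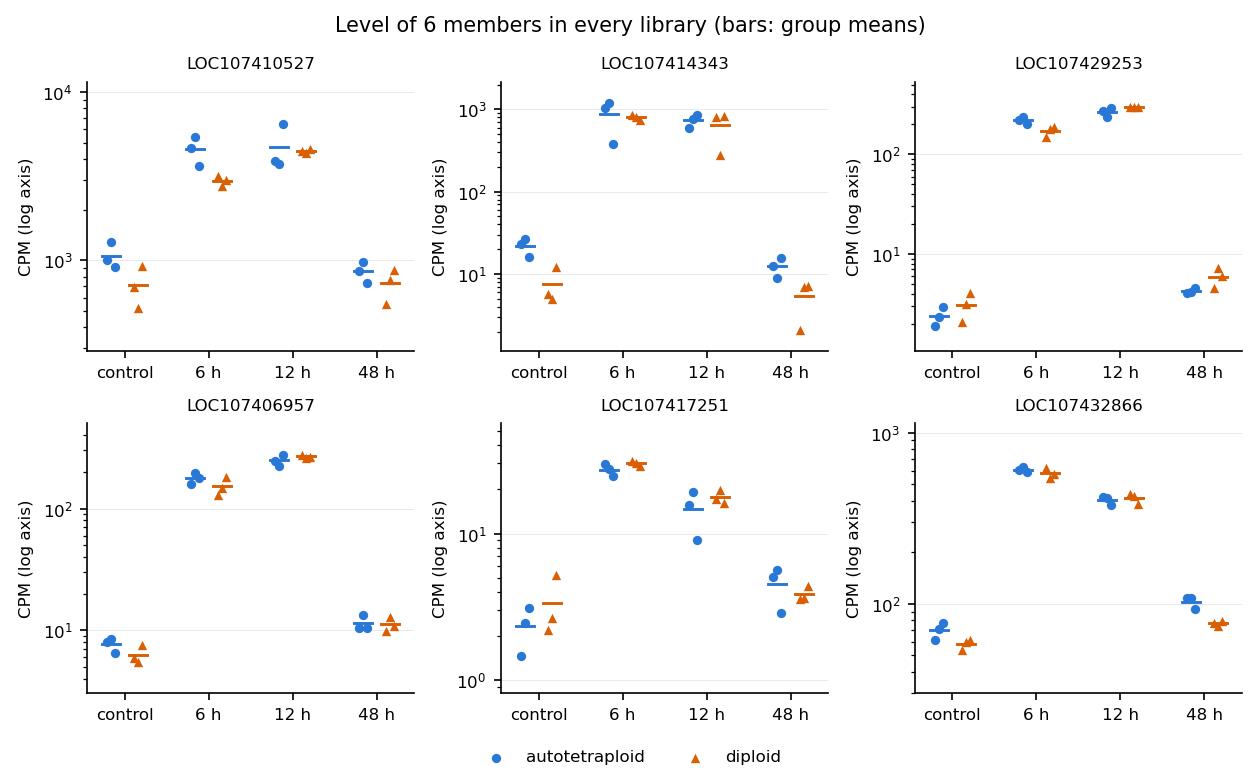
CPM on log axes of 6 members in every library by treatment; points are libraries (autotetraploid circles left of diploid triangles) and short bars are group means. LOC107410527 has at least 517 CPM in every control, LOC107429253 has at least 149 CPM at 6 h and 12 h and at most 4.02 CPM in controls, LOC107417251 is lower at 12 h than at 6 h, and LOC107432866 is separated between the ploidies at 48 h.

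Within the allowed range of 0.5 to 2, the members' 12 h over 6 h ratio had a median of 1.16 in the autotetraploid and 1.19 in the diploid, against 1.08 and 1.06 over all genes tested. It was over 1 in both ploidies for 35 members, under 1 in both for 12, and under 1 in the autotetraploid but over 1 in the diploid for LOC107413320, LOC107416419, LOC107423235, LOC107425216 and LOC107432374. No member showed the opposite combination. In the autotetraploid 35 members and 16360 of the 25829 genes tested were over 1. In the diploid these were 40 members and 15842 genes. Scaling by TMM factors moved log2 ratios to control by -0.0156 at 6 h and -0.15 at 12 h in the autotetraploid. In the diploid it moved them by -0.0163 and -0.128, so the size of the 12 h over 6 h ratios depends on the scaling. All 3 libraries at 12 h lay beyond all 3 at 6 h for 22 members in the autotetraploid, 15 above and 7 below, and over all genes tested this held for 29.6%. In the diploid it held for 23 members, 18 above and 5 below, and for 31.5% of all genes tested. Ratios in the ploidies had a Pearson correlation of 0.752 on the log2 scale across the 52 members, which were all selected on bounds to these ratios.

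The members that were higher at 12 h in every library of both ploidies were LOC107406957, LOC107411200, LOC107414746, LOC107417587, LOC107417785, LOC107418486, LOC107418499 and LOC107432283. LOC107431557 had the highest ratio over both ploidies combined, 1.99 in the autotetraploid and 1.64 in the diploid. It had 30.4, 36.2 and 30.7 CPM at 12 h against 13.8, 16.7 and 17.7 CPM at 6 h in autotetraploid leaves, and 27.0, 26.7 and 18.2 CPM at 12 h against 22.4, 8.88 and 12.1 CPM at 6 h in diploid leaves. The times were separate in the autotetraploid and overlapped in the diploid through 1 high library at 6 h.

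The members that were lower at 12 h in every library of both ploidies were LOC107417251, LOC107424311, LOC107425643, LOC107432866 and LOC107434831. LOC107417251 had 15.7, 19.0 and 9.04 CPM at 12 h against 29.5, 27.3 and 24.7 CPM at 6 h in autotetraploid leaves, and 17.3, 19.7 and 16.2 CPM at 12 h against 31.2, 30.1 and 28.6 CPM at 6 h in diploid leaves. Its 12 h over 6 h ratio of 0.545 in the autotetraploid and 0.598 in the diploid was near the lower bound. LOC107425643 had the lowest ratio in the autotetraploid, 0.534, against 0.707 in the diploid.

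**Figure D4:**
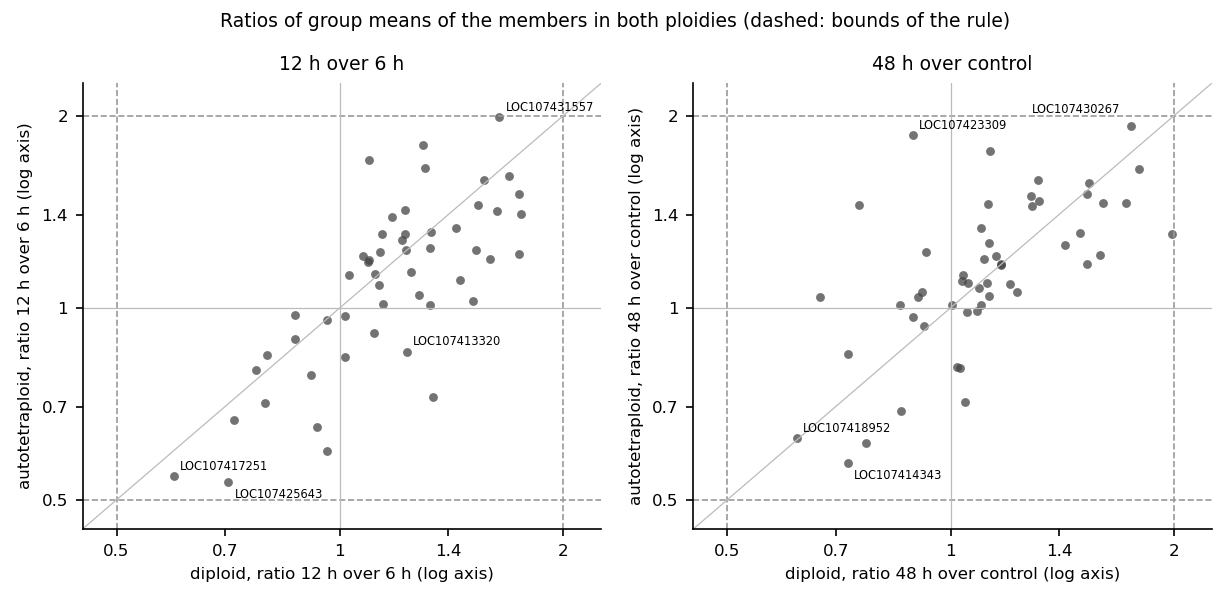
Ratios of group means (0.5 CPM added) in the autotetraploid against the diploid for the 52 members, on log2 axes: 12 h over 6 h on the left and 48 h over control on the right. Dashed lines are the bounds of the selection at 0.5 and 2 and the diagonal marks equal ratios. On the left 35 members lie above 1 in both ploidies and 12 below 1 in both; on the right these are 33 and 7.

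At 48 h the members lay close to control by selection, and inside the bounds more were above it than below. The 48 h over control ratio was over 1 in both ploidies for 33 members and under 1 in both for 7. In the autotetraploid 40 members and 11361 of the 25829 genes tested were over 1, and in the diploid 38 members and 12483 genes. All 48 h libraries lay beyond all controls for 15 members in the autotetraploid, 12 above and 3 below, against 32.1% of all genes tested. In the diploid this held for 13 members, all 13 above, against 23% of all genes tested. LOC107406957, LOC107407619, LOC107411161, LOC107416419, LOC107428588, LOC107428598, LOC107429253, LOC107430267 and LOC107432866 were above all controls in both ploidies, and no member was below all controls in both.

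LOC107430267 had the highest 48 h over control ratio over both ploidies combined. It had 50.7, 35.4 and 43.3 CPM at 48 h against 22.5, 20.2 and 23.7 CPM in controls in autotetraploid leaves, and 46.7, 50.8 and 52.8 CPM at 48 h against 30.8, 27.6 and 26.7 CPM in controls in diploid leaves. Its ratio was 1.93 in the autotetraploid and 1.75 in the diploid, with no overlap in either. LOC107418952 had the lowest ratio over both ploidies combined, 0.625 in the autotetraploid and 0.621 in the diploid, with 0.840, 0.419 and 0.530 CPM at 48 h against 0.666, 1.21 and 1.89 CPM in controls in autotetraploid leaves, and 0.615, 0.651 and 1.22 CPM at 48 h against 0.532, 1.86 and 2.52 CPM in controls in diploid leaves. These groups overlapped in each ploidy. The means were 0.596 CPM at 48 h against 1.26 CPM in autotetraploid controls, and 0.828 against 1.64 CPM in the diploid. At such levels the added 0.5 makes the ratios understate the difference. LOC107423309 had 33.7, 2.57 and 0.391 CPM at 48 h in autotetraploid leaves and 3.53, 12.3 and 1.32 CPM in diploid leaves, so its means at 48 h rested on single libraries, and it met the rule in 19 of the 24 selections that left out 1 library.

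Some bounds had genes close by on both sides, and others fell in wider gaps. Just inside the 4-fold minimum lay LOC107413320, whose smallest ratio was 4.009, and LOC107425643 at 4.013, and just outside lay LOC107403632 at 3.967 and LOC107434947 at 3.953. At the upper 12 h over 6 h bound, LOC107431557 at 1.987 and LOC107434691 at 1.796 were inside and LOC107414449 at 2.108 and LOC107414037 at 2.357 outside, and at the lower bound LOC107425643 at 0.5339 and LOC107417251 at 0.5453 were inside and LOC107404855 at 0.4966 and LOC107411211 at 0.4093 outside. At the upper 48 h bound, LOC107417587 at 1.988 and LOC107430267 at 1.929 were inside and LOC107421718 at 2.026 and LOC107421599 at 2.094 outside, and at the lower one LOC107414343 at 0.5721 and LOC107431972 at 0.613 were inside and LOC107411246 at 0.4493 and LOC107414097 at 0.4069 outside. For the minimum mean at 6 h, which includes the added 0.5, LOC107413883 at 8.89 CPM and LOC107434831 at 9.089 CPM were inside and LOC107414437 at 4.214 CPM and LOC107409304 at 3.713 CPM outside. With library totals scaled by TMM factors, 42 genes met the rule, 41 of them members, so 41 of the 52 were kept under that choice.

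The selection compared times within each ploidy and not the ploidies with each other, and the difference between autotetraploid and diploid was tested within each treatment. This test is not independent of the selection. The rule had to be met in both ploidies on these same libraries, which tends to leave out genes that respond differently in the ploidies. How far this lowers the number of members called was not tested. The quasi-likelihood test of edgeR was run across all 25829 genes, p-values were adjusted after Benjamini-Hochberg, and all 52 members passed the low-count filter. In controls 0 members were called at adjusted p under 0.05, against 0% of all genes tested. At 6 h 0 members were called, against 0% of all genes tested. At 12 h 0 members were called, against 0.0194% of all genes tested. At 48 h 1 member was called, against 0.139% of all genes tested, and in the mean over the 4 treatments 0 were called, against 0.403% of all genes tested. At an unadjusted p under 0.05 there were 7 members in controls (13.5% of the 52, against 8.63% of all genes tested), 3 at 6 h (5.77% against 7.43%), 5 at 12 h (9.62% against 5.31%), 4 at 48 h (7.69% against 8.34%) and 12 in the mean over treatments (23.1% against 13.8%). With DESeq2, 0 members were called in controls, against 0.682% of all genes with an adjusted p, 0 at 6 h, against 0.448%, and 0 at 12 h, against 0.51%. DESeq2 called 1 member at 48 h, against 1.69%, and 4 in the mean over treatments, against 3.44%. With limma, 0 members were called in controls and at 6 h, against 0% of all genes tested at each, and 0 at 12 h, against 0.0194%. Limma called 1 member at 48 h, against 0.294%, and 0 in the mean over treatments, against 0.616%.

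The member called at 48 h was LOC107432866. It had 108, 107 and 93.8 CPM at 48 h in autotetraploid leaves and 77.0, 74.4 and 79.6 CPM at 48 h in diploid leaves. All autotetraploid libraries were above all diploid ones, and the log2 difference was 0.44 ± 0.08 (SE), adjusted p = 0.0334 (edgeR quasi-likelihood, Benjamini-Hochberg). In controls it had 61.8, 70.8 and 77.1 CPM in autotetraploid and 53.9, 59.5 and 61.7 CPM in diploid leaves, which did not overlap either, with an adjusted p of 0.42 by the same test. At 6 h it had 605, 628 and 586 CPM in autotetraploid and 618, 546 and 575 CPM in diploid leaves, and at 12 h 422, 415 and 376 CPM in autotetraploid and 440, 429 and 384 CPM in diploid leaves, and at both times the ploidies overlapped. The call at 48 h was lost, with edgeR adjusted p between 0.096 and 0.12, when autotetraploid 48 h replicate 1 or 2 or diploid 48 h replicate 1 or 2 was left out, while the log2 difference stayed between 0.41 and 0.463. It was also lost when only library totals were used for scaling, at an adjusted p of 0.057, and when only the 6 libraries of 48 h were fitted, at an adjusted p of 0.25.

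The direction of the ploidy difference, whatever its size, was more often up than down among the members. At 6 h 42 of 52 members had the higher fitted level in the autotetraploid, with a median log2 difference of 0.121, against a median of -0.0106 over all genes tested. In controls there were 33 higher with a median of 0.0823, against -0.000834 over all genes tested. At 12 h there were 28 with a median of 0.0461, against 0.00281, and at 48 h 35 with a median of 0.104, against -0.00306. The members deviated together within libraries (median pairwise correlation of 0.16, against 0.002 for tested genes of at least 5 CPM), so their directions are not independent of each other. Members higher in the autotetraploid in all 4 treatments made up 26.9% of the 52, 14 genes, against 9.56% of all genes tested, and members lower in all 4 made up 5.77%, 3 genes, against 10.6%. Some of these medians rested on single libraries: the control median was -0.00134 without autotetraploid control replicate 3 and 0.0121 without diploid control replicate 1, the 12 h median was -0.0537 without autotetraploid 12 h replicate 3, and the 48 h median was 0.313 without diploid 48 h replicate 3. At 6 h it stayed between 0.0952 and 0.155 when each library was left out in turn.

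Some members were separated between the ploidies without any overlap of libraries. In controls this held for 5 members (9.62%), 3 higher and 2 lower in the autotetraploid, against 11.7% of all genes tested in either direction. At 6 h it held for 11 members (21.2%), all 11 higher in the autotetraploid, against 15.8% of all genes tested. At 12 h it held for 9 members (17.3%), 6 higher and 3 lower, against 9.92%, and at 48 h for 5 members (9.62%), all 5 higher, against 13.5%. These shares lay on either side of the background. LOC107417362 was the member separated most often. It had 22.5, 19.9 and 19.9 CPM in autotetraploid and 14.2, 14.1 and 15.5 CPM in diploid controls, 90.4, 90.2 and 98.6 CPM in autotetraploid and 78.4, 69.8 and 71.8 CPM in diploid leaves at 6 h, and 110, 113 and 142 CPM in autotetraploid and 90.5, 102 and 76.7 CPM in diploid leaves at 12 h. The ploidies overlapped for it at 48 h, and its log2 difference over the 4 treatments was 0.34 ± 0.09 (SE) with an adjusted p of 0.0849 by edgeR's quasi-likelihood test.

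Some members with larger ploidy differences than LOC107432866 were not called. In controls LOC107414343, whose values are given above, was higher in every autotetraploid library, at a log2 difference of 1.52 ± 0.50 (SE) and an adjusted p of 0.421 by edgeR's quasi-likelihood test. Its difference at 48 h, also without overlap, was 1.24 ± 0.50 (SE) with an edgeR adjusted p of 0.503. At 6 h LOC107425391 had 72.4, 89.7 and 86.3 CPM in autotetraploid and 42.2, 37.1 and 42.2 CPM in diploid leaves, a log2 difference of 1.02 ± 0.35 (SE) with an edgeR adjusted p of 0.601. At 6 h LOC107413320 had 22.8, 29.5 and 21.1 CPM in autotetraploid and 14.3, 11.2 and 16.4 CPM in diploid leaves, a log2 difference of 0.80 ± 0.32 (SE) with an edgeR adjusted p of 0.618. LOC107410527 differed by 0.61 ± 0.23 (SE) on the log2 scale at 6 h, with an edgeR adjusted p of 0.601. In all of these the 3 autotetraploid libraries stood above the 3 diploid ones, and the adjusted p did not pass the threshold. Uncalled differences of such size also ran the other way, though with overlapping libraries. LOC107425216 differed by -0.73 ± 0.40 (SE) on the log2 scale at 12 h, and LOC107433674 by -0.71 ± 0.50 (SE) at 48 h.

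**Figure D5:**
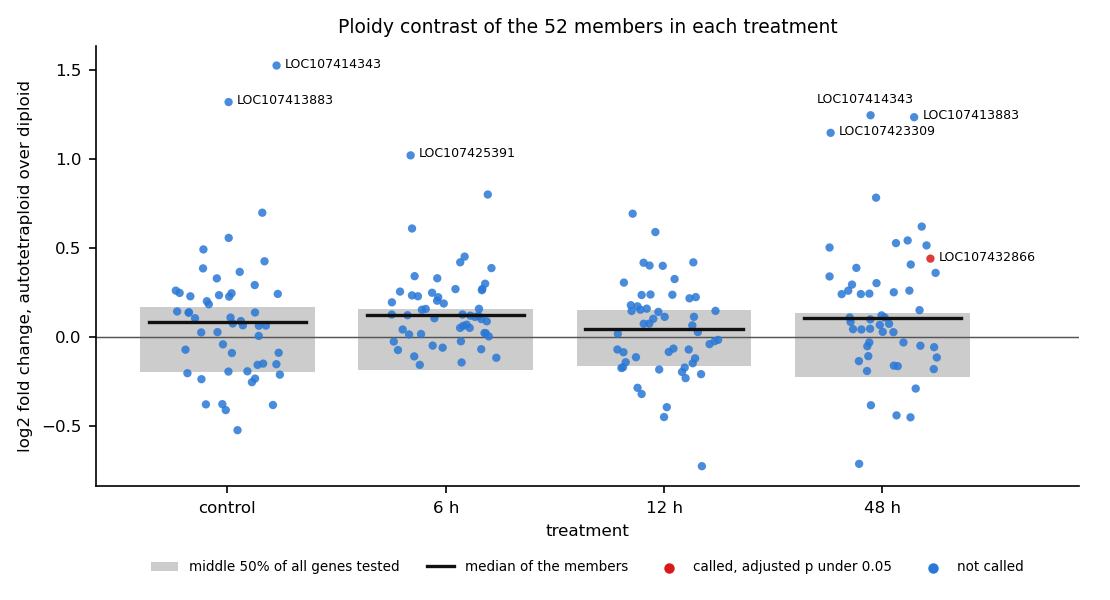
Log2 fold change of autotetraploid over diploid for the 52 members in each treatment from edgeR; points are members, the dark line is their median and the grey band holds the middle 50% of all genes tested. The called member, LOC107432866 at 48 h, is red; the members' medians are 0.0823, 0.121, 0.0461 and 0.104 in controls and at 6 h, 12 h and 48 h.

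The members' median coefficient of variation between the 3 libraries of a group was smallest at 6 h in both ploidies. In the autotetraploid it was 20% in controls, 9.85% at 6 h, 17% at 12 h and 17.9% at 48 h, against 10.4%, 8.91%, 12.7% and 10.1% over all tested genes of at least 5 CPM. In the diploid it was 25% in controls, 10.4% at 6 h, 11% at 12 h and 18.9% at 48 h. Over such genes it was 13.3%, 9.97%, 9.42% and 9.04%. Such genes were taken by their mean in each group, while members were kept at any level. Some members lay under 5 CPM outside 6 h and 12 h. LOC107434831, for example, had means of 1.08 CPM in autotetraploid controls and 1.28 CPM at 48 h. At 6 h the selection itself set a minimum mean. The sets therefore differ in level, and the part of level in these variations was not tested. Deviations of the members from their group means had a median pairwise correlation of 0.16 over 1326 pairs, against 0.002 for all tested genes of at least 5 CPM, over the same 24 libraries. Many members ran low together in autotetraploid control replicate 1 and in diploid replicate 1 of controls and of 48 h. Their median log2 deviations were -0.204, -0.177 and -0.175. Many ran high together in diploid replicate 3 of controls and of 48 h, at 0.21 and 0.178. Diploid 48 h replicate 1 is the most deeply sequenced library. Diploid control replicate 1, which ran low, had 46986018 counts, and diploid control replicate 3, which ran high, had 44768752. The part of depth in these deviations was not tested.

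The 41 members found in the reference table were spread over 12 chromosomes of its assembly. One pair, LOC107426148 and LOC107426150, were neighbours with 0 annotated genes between them, and no other pair of these 41 had 9 or fewer annotated genes between them. LOC107426148 had 17.4, 20.9 and 19.9 CPM at 6 h in autotetraploid and 20.1, 13.9 and 16.2 CPM in diploid leaves, and its neighbour LOC107426150 had 523, 602 and 488 CPM at 6 h in autotetraploid and 346, 486 and 520 CPM in diploid leaves. On the FPKM scale over 6 h and 12 h LOC107426148 had a level of 15.7 and LOC107426150 a level of 514, so these neighbours differed widely in level. Whether either of them shares reads with a near-identical copy cannot be told from the counts used here. Of the 41 members in the reference table, 26 have 1 annotated transcript and 15 have several, up to 10 for LOC107430078.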

How the data were processed

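The tests used the deposited RNA-seq counts, whole and without normalization per the file headers; the deposited FPKM tables, 1 per group per the file headers, were used for levels between genes. HISAT2 and StringTie are named in the submitters' processing notes; versions, genome build, annotation and use of strand are not given in the sources used here, so overlapping and antisense genes, and near-identical copies, cannot be told apart.

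CPM by library totals and the selection were computed in Python 3.11.15. Ploidy contrasts came from edgeR 4.0.16 in R 4.3.3 (filterByExpr, TMM, 1 mean per group over 24 libraries, robust quasi-likelihood fit, 16 residual degrees of freedom, Benjamini-Hochberg over 25829 genes, called at adjusted p under 0.05), with DESeq2 1.42.0 and limma 3.58.1 as alternatives. The edgeR step was checked on simulated counts. The SE of a log2 difference from edgeR was derived as its absolute value divided by the square root of the quasi-likelihood F statistic. Members and lists were chosen with earlier results of these data known. Named genes are the 8 members highest in FPKM, the 8 with the largest minimum ratio, those called between ploidies, those at the extremes of the ratios and the nearest genes on either side of each bound; other members named were chosen after their values were seen. Gene names and neighbours came from a table of the ASM3175591v1 assembly. Planned searches of product descriptions, protein signatures and promoter motifs were not run, as no descriptions or sequences were used here.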

Additional observations from a re-analysis of the deposited data

Results flagged for a closer look

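LOC107429253 lay on opposite sides of the ploidy comparison at successive times: all 3 autotetraploid libraries were above all 3 diploid libraries at 6 h (222, 239 and 201 CPM against 149, 179 and 187 CPM) and below them at 12 h (271, 237 and 296 CPM against 299, 300 and 300 CPM). The log2 differences, autotetraploid minus diploid, were 0.34 ± 0.19 (SE) at 6 h and -0.20 ± 0.19 (SE) at 12 h, a change of 0.538. Neither difference was called, with unadjusted p of 0.0824 at 6 h and 0.302 at 12 h by edgeR's quasi-likelihood test. Over all genes tested, the ploidies did not overlap for 15.8% at 6 h and 9.92% at 12 h. The change between the times was not tested, because the 12 h over 6 h ratio in each ploidy entered the selection of the members.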

How the results depend on the processing

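Of 378 recomputed values, 350 kept direction and call (tested values), stayed within 1.5 times (counts) or moved by less than the spread between replicates (medians). Of the others 7 lost a call (all of LOC107432866 at 48 h), 7 gained one, and 14 moved further; 0 called values changed sign. Among the 350, the members' median ploidy difference changed sign in controls (-0.00134 without autotetraploid control replicate 3) and at 12 h (-0.0537 without autotetraploid 12 h replicate 3). The rule met 52 genes with a 4-fold minimum, 103 with a 3-fold and 19 with a 6-fold one, and 46 to 64 when each library was left out in turn; 31 members were kept in all 24 of those settings. The 1 member called at 48 h became 0 with library totals only and with only the libraries compared, and 0 to 1 when single libraries of 48 h were left out. In the mean over the 4 treatments, 0 members became 4 with DESeq2 (LOC107417362, LOC107432866, LOC107414343 and LOC107410527), which called 882 genes in all against 104 with edgeR, and 0 to 1 with single libraries left out. Libraries of the ploidies with the same number did not deviate together (correlations between -0.0399 and 0.0481), and the replicate block gave 0 members at 48 h, with an adjusted p of 0.065 for LOC107432866. Across alternatives, its adjusted p at 48 h ran between 3.1e-06 with DESeq2 and 0.25 with only the libraries compared. The cause of these changes was not tested. With 3 libraries a group, the median standard error of a member's log2 ploidy difference was 0.218 to 0.224 within a treatment, which limits what could be called.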
